A study of Mus musculus with 9 samples.

Results

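RNA levels of 9 genes that mark B cells were examined in lactating mammary gland: Cd79a, Cd79b, Ms4a1, Cd22, Cr2, Pax5, Blk, Blnk and Fcer2a. Members were the 13 probes, of 41174 on the array, that carried 1 of these gene symbols in the array's own annotation and were not control features. Ms4a1, Cd22, Cr2 and Pax5 had 2 probes each and the other 5 genes had 1. Mammary gland number 4 was taken on lactation day 2 from 4 wild type (WT) dams and 5 hNAG-1 dams, and each array held the RNA of 1 mouse. The labels give the strain background of both genotypes as C57BL/7. The hNAG-1 dams carried a transgene made to express human NAG-1, a secreted protein also named GDF15, in all tissues, so their glands and their immune cells both carried it. The study kept a pair of transgenic lines and pooled them in some experiments, and the labels do not say which line an array's dam came from. The dams had gone through repeated litters in a breeding study, and no further treatment, Cre or deletion is given for either genotype. The comparison asked how gene expression in the gland differed between the genotypes, and the B cell genes were followed through it.

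B cells are the lymphocytes that carry antibody as a membrane receptor. The receptor signals through the paired chains encoded by Cd79a and Cd79b, the kinase Blk and the adaptor Blnk pass the signal on, Cd22 dampens it and Cr2 amplifies it. Ms4a1 encodes the surface protein CD20, Fcer2a the low-affinity IgE receptor CD23, and Pax5 the transcription factor that keeps cells in the B lineage. Mouse mammary gland number 4 normally encloses the inguinal lymph node, which is rich in resting B cells, and lactating gland also takes up antibody-secreting cells. Whether the node was removed before RNA was made is not given in the sources used here. In whole-gland RNA, fewer B cells and less RNA per B cell cannot be told apart.

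RefSeq promoter windows were available for 6 of the 9 genes, in 8 windows because Fcer2a had 3, and 3 short motifs bound by B cell transcription factors were searched on both strands. The motifs were the octamer bound by Oct factors (ATTTGCAT), a core of the EBF site (CCCNNGGG) and a core of the PU.1 site (GAGGAA), and none of the matches overlapped. Each was found in 1 of the 8 windows. The octamer lay 130 bases upstream of the start of Blnk, and 1.74% of 32851 mouse promoter windows of the same length held it. The EBF core lay 48 bases upstream of the start of Cd22 (13.7% of all windows held it) and the PU.1 core lay 140 bases upstream of the start of Cd79a, on the opposite strand (28.3%). The 250 bases before these 3 starts are shown because each holds 1 of the matches, with the matched motif in capitals and the rest in lower case. Positions are in GRCm38.p6, with Cd79a at chr7:24897247-24897496 on the plus strand, Cd22 at chr7:30879029-30879278 on the minus strand and Blnk at chr19:40994222-40994471 on the minus strand.
Cd79a: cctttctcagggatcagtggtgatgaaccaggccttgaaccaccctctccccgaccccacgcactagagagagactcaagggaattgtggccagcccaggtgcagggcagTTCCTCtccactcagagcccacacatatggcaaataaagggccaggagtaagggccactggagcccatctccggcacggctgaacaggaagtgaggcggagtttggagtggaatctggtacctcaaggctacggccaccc
Cd22: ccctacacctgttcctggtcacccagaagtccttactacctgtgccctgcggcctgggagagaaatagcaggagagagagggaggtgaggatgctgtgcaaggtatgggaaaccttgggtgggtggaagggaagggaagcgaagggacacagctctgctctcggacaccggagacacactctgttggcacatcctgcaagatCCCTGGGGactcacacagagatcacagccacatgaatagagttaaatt
Blnk: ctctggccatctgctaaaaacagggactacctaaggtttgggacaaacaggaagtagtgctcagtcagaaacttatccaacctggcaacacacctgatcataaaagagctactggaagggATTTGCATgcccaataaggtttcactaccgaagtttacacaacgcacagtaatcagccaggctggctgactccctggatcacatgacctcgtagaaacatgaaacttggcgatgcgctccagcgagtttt
A match describes the letters of the window and does not show that a factor binds there. No match was found in the windows of Cr2, Pax5 and Fcer2a.

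Intensities were scaled so that every array had the same 75th percentile, and the values below are these scaled intensities in arbitrary units. Before scaling, the 75th percentile ranged from 533 to 1185 and the share of features well above background from 59.8% to 76.1% over the 9 arrays. Of the 3 slides used, the first carried a single array of this series (WT 1), the second carried hNAG-1 1 to 4, and only the third (slide 3) carried both genotypes, as WT 2 to 4 beside hNAG-1 5. Milk protein genes, the defining markers of lactating epithelium, were measured on all arrays, and the summed intensity of 9 secretory epithelium genes ranged from 1260590 to 2284140 in WT and from 1637600 to 2349400 in hNAG-1. The probe of Wap, a bright milk protein gene in this sum, was saturated on 2 arrays, so sums that include those spots are lower bounds. The array WT 2 stood apart for lymphocyte genes, so the genotype comparisons of the B cell genes are given with and without it.

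Levels of the B cell genes differed far more between glands of the same genotype than levels of most genes did. The median standard deviation of the 13 probes was 2.09 on the log2 scale among WT arrays and 1.24 among hNAG-1 arrays, against 0.31 and 0.35 over all 41174 probes. WT 2 was the highest of the 9 arrays for 12 of the 13 probes, whereas it was the highest for 11.3% of all probes. The remaining probe was highest in hNAG-1 5, which was the highest array for 23.0% of all probes. For 10 of the 13 probes WT 2 lay at least 4-fold above the median of the other 3 WT arrays, against 2.48% of all probes. The median ratio of WT 2 to that median was 13.9 over the B cell probes and 0.897 over all probes. Behind WT 2, the arrays WT 1, hNAG-1 4 and hNAG-1 5 were most often among the 3 highest, for 11, 7 and 7 of the 13 probes. These ranks include dim probes, whose values under background have no measured order.

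**Figure D1:**
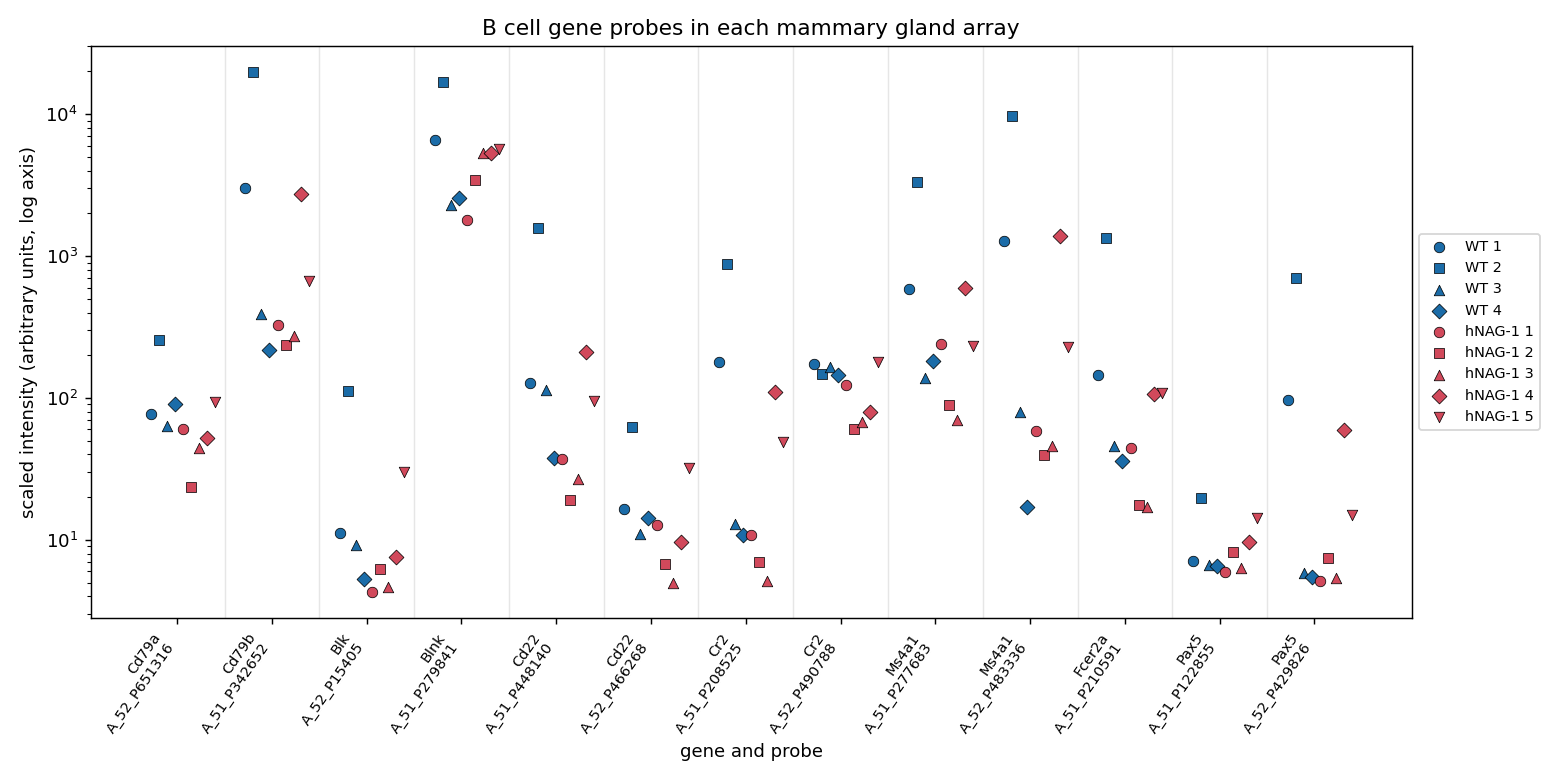
Scaled intensity (arbitrary units, log axis) of the 13 B cell gene probes on each of the 9 arrays, with WT in blue, hNAG-1 in red and 1 marker shape for each replicate number. The WT 2 square is the highest point for 12 of the 13 probes, and the hNAG-1 and WT points overlap for every probe.

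The signalling chains of the receptor differed in how far WT 2 stood out. Cd79b (probe A_51_P342652) had a scaled intensity of 3017 in WT 1, 19851 in WT 2, 393 in WT 3 and 217 in WT 4, and of 329, 237, 271, 2754 and 667 in hNAG-1 1 to 5. WT 2 stood 6.58-fold above the next array, WT 1 and hNAG-1 4 lay close together, and the remaining 6 arrays of both genotypes formed a low group from 217 to 667. The log2 fold change of hNAG-1 against WT was -1.53 (SE 1.30, n = 4 and 5), with an unadjusted limma p of 0.271 and an adjusted p of 0.686. Without WT 2 it was -0.28 (SE 1.05). The difference did not exceed the spread between replicates, and most of its size rested on a single WT gland. Cd79a (A_52_P651316) varied less, with 76.6, 258, 63.6 and 90.1 in WT 1 to 4 and 60.0, 23.7, 44.6, 51.9 and 93.7 in hNAG-1 1 to 5. Here 4 of the 5 hNAG-1 arrays lay below every WT array, and hNAG-1 5 lay above WT 1, WT 3 and WT 4. The log2 fold change of Cd79a was -1.05 (SE 0.48), with an unadjusted limma p of 0.0566 and an adjusted p of 0.661, and it was -0.61 (SE 0.40) without WT 2. The 4 low arrays of Cd79a were those of slide 2, and with slide as a block its log2 fold change was -0.28 (unadjusted limma p 0.730). On 1 hNAG-1 array the Cd79a probe was not well above background.

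Of the genes that pass the receptor's signal on, the adaptor Blnk was measured on every array and the kinase Blk on few. Blnk (A_51_P279841), which macrophages and some other cells also express, was well above background on all 9 arrays, with 6562, 16867, 2289 and 2585 in WT 1 to 4 and 1801, 3446, 5329, 5293 and 5674 in hNAG-1 1 to 5. WT 2 was again highest, but 4 hNAG-1 arrays exceeded WT 3 and WT 4, and the genotypes overlapped broadly. Its log2 fold change was -0.35 (SE 0.61, adjusted limma p 0.853) with all arrays and 0.23 (SE 0.48) without WT 2, so its direction depended on that array. Blk (A_52_P15405), a Src family kinase typical of B cells, reached 113 in WT 2 and 30.3 in hNAG-1 5 and was well above background only on those 2 arrays. On the other 7 arrays its values ran from 4.29 to 11.1, which gives no measured order among them. The fitted log2 fold change of Blk was -1.01 (SE 0.90) and was -0.06 (SE 0.63) without WT 2.

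The coreceptor genes were each read by a pair of probes, and the pairs did not always tell the same story. For Cd22, probe A_51_P448140 gave 127, 1587, 115 and 37.4 in WT 1 to 4 and 37.1, 19.1, 27.0, 211 and 95.6 in hNAG-1 1 to 5. WT 2 lay 7.54-fold above the next array, which was hNAG-1 4, and the other WT and hNAG-1 arrays overlapped. The log2 fold change was -1.72 (SE 1.08, adjusted limma p 0.661) and -0.65 (SE 0.82) without WT 2. This probe was well above background on 4 of the 5 hNAG-1 arrays. The second Cd22 probe, A_52_P466268, was well above background on 1 WT and 1 hNAG-1 array, WT 2 at 62.8 and hNAG-1 5 at 32.0, and its other values ran from 4.96 to 16.6.

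The Cr2 probes differed in kind. Probe A_51_P208525 followed the other B cell genes, with 180, 883, 12.9 and 10.9 in WT 1 to 4 and 10.9, 6.97, 5.11, 110 and 48.5 in hNAG-1 1 to 5. It was well above background on 2 arrays of each genotype, and WT 2, WT 1 and hNAG-1 4 were its highest arrays, in that order. Its log2 fold change was -1.91 (SE 1.45, adjusted limma p 0.661) and -0.68 (SE 1.29) without WT 2. Probe A_52_P490788 was well above background on all 9 arrays and showed no rise in WT 2, with 173, 148, 167 and 145 in WT 1 to 4 and 124, 60.8, 67.8, 79.1 and 179 in hNAG-1 1 to 5. The 4 WT arrays lay within a narrow band, 4 hNAG-1 arrays lay below all of them, and hNAG-1 5 lay above all of them. Its log2 fold change was -0.75 (SE 0.31), with an unadjusted limma p of 0.0389, an adjusted p of 0.661 and an exact permutation p of 0.0952, two-sided over 126 splits. Without WT 2 it was -0.78 (SE 0.36), with an unadjusted limma p of 0.0603 that no longer passed 0.05. The 3 lowest arrays of this probe, hNAG-1 2 to 4, were also those with the smallest shares of features well above background, at 60.3%, 64.6% and 59.8%, and whether that share bears on the difference was not tested. All 4 of its low arrays lay on slide 2, which held no WT array, and on slide 3 the single hNAG-1 array lay 0.23 log2 units above the WT mean. For this probe a difference of genotype and one of slide cannot be told apart. Over the 9 arrays the log2 levels of the Cr2 probes correlated with r = 0.426 (Pearson, a description over arrays that share both genotypes and 3 slides).

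**Figure D2:**
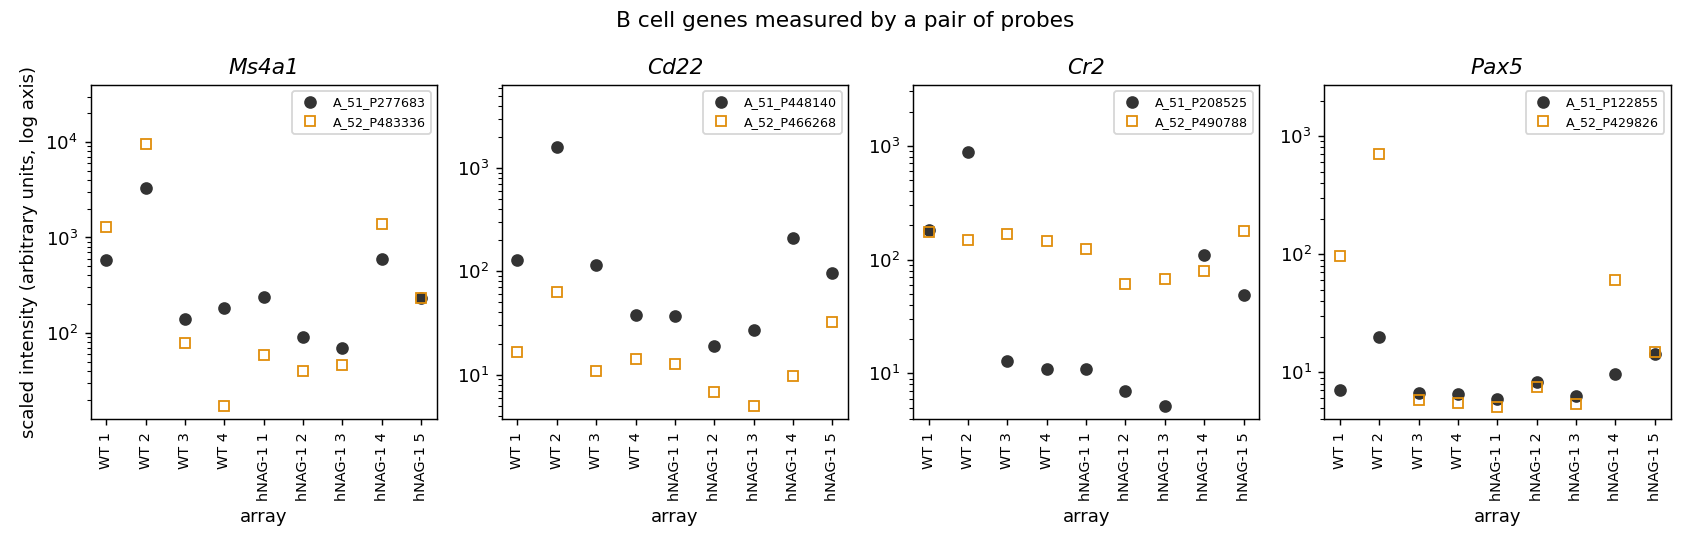
Scaled intensity (arbitrary units, log axis) on each of the 9 arrays for the 4 B cell genes read by a pair of probes, with 1 symbol for each probe. Both Ms4a1 probes peak in WT 2, whereas for Cr2 probe A_51_P208525 runs from 5.11 to 883 and probe A_52_P490788 stays between 60.8 and 179.

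The genes of the surface proteins CD20 and CD23 were also highest in WT 2. The Ms4a1 probe A_51_P277683 gave 585, 3325, 138 and 182 in WT 1 to 4 and 240, 89.4, 69.9, 595 and 233 in hNAG-1 1 to 5. The second Ms4a1 probe, A_52_P483336, gave 1273, 9645, 79.0 and 17.1 in WT 1 to 4 and 58.8, 39.5, 46.0, 1393 and 229 in hNAG-1 1 to 5. Both probes placed WT 2 highest and hNAG-1 4 and WT 1 next. The second probe was not well above background on 1 WT array. Their log2 fold changes were -1.36 (SE 0.97) and -1.49 (SE 1.83), and without WT 2 they were -0.42 (SE 0.76) and 0.09 (SE 1.60). Fcer2a (A_51_P210591) gave 146, 1334, 45.7 and 36.0 in WT 1 to 4 and 44.6, 17.5, 17.1, 107 and 109 in hNAG-1 1 to 5. WT 2 lay 9.13-fold above WT 1, the next array, and hNAG-1 4 and 5 exceeded WT 3 and WT 4. The Fcer2a log2 fold change was -1.62 (SE 1.08, adjusted limma p 0.661) and -0.52 (SE 0.79) without WT 2. The Fcer2a probe was well above background on 3 of the 5 hNAG-1 arrays.

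The transcription factor Pax5 was measurable only where the other B cell genes were high. Probe A_52_P429826 gave 96.3, 706, 5.86 and 5.50 in WT 1 to 4 and 5.11, 7.49, 5.41, 59.8 and 15.0 in hNAG-1 1 to 5, and it was well above background in WT 1, WT 2 and hNAG-1 4. These arrays were also the 3 highest for Cd79b and for both Ms4a1 probes. Its log2 fold change was -1.77 (SE 1.45, adjusted limma p 0.674) and -0.37 (SE 1.15) without WT 2. The other Pax5 probe, A_51_P122855, was not well above background on any array, so no fold change is given for it.

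Over the 13 probes, 0 passed an adjusted limma p of 0.05 and 1, the flat Cr2 probe, passed an unadjusted p of 0.05, in the direction of lower in hNAG-1. Over all 41174 probes, 0.00243% passed the adjusted threshold, 4.45% passed the unadjusted threshold as lower in hNAG-1 and 1.15% as higher. The methods of the study added limits of 1.5 on the fold change and of 65 on the intensity, and with those limits on top of the limma p the same Cr2 probe was the 1 member counted as lower, beside 1.97% of all probes, and 0 were counted as higher (0.313%). With the test named in the study's methods in place of limma, 0 members passed an unadjusted p of 0.05, beside 4.82% of all probes. Fold changes were below 0 for 13 of 13 probes, the unmeasured Pax5 probe included, against 52.1% of all probes, and the median log2 fold change was -1.36 against -0.02. Without WT 2, 10 of 13 were below 0 against 55.4% of all probes, 0 passed the unadjusted limma threshold (3.69% of all probes passed as lower and 0.636% as higher), and 0 passed after adjustment. In 0 of the 13 probes were the genotypes free of overlap, against 0.695% of all probes with every hNAG-1 array lower and 0.658% with every hNAG-1 array higher. With slide as a block, a fit in which only slide 3 compares genotypes, 8 of 13 fold changes were below 0 (31.2% of all probes) and again 0 passed the unadjusted limma threshold (0.699% of all probes as lower, 6.91% as higher) or the adjusted one (0.335%). Intervals were wide for most probes: the 95% interval of the log2 fold change ran from -4.61 to 1.56 for Cd79b and from -1.78 to 1.09 for Blnk. It ran from -2.19 to 0.09 for Cd79a and, for the flat Cr2 probe, from -1.49 to -0.01.

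**Figure D3:**
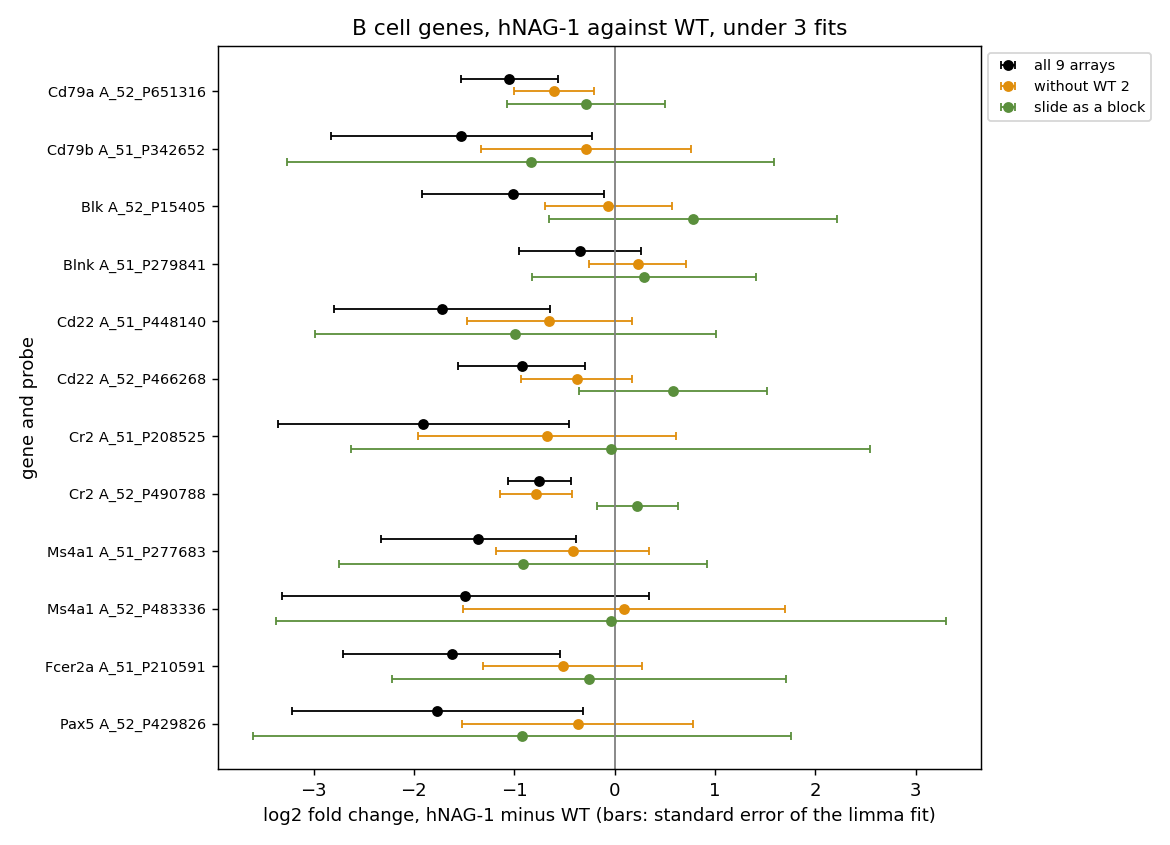
Log2 fold change of hNAG-1 minus WT for the 12 B cell gene probes that were well above background on at least 1 array, from limma with all 9 arrays (black), without WT 2 (orange) and with slide as a block (green). Bars are 1 standard error. Black points all lie below 0, orange points lie closer to 0 except for Cr2 probe A_52_P490788, and the green bars cross 0 for every probe.

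Other genes of the B cell receptor pathway were mostly highest in the same gland. Of 20 further signalling genes, WT 2 was the highest array for 16, and 16 had a fold change below 0 with all arrays but 9 without WT 2. The median log2 fold change of these genes was -0.42, and 0.03 without WT 2. In this list 2 genes passed an unadjusted limma p of 0.05 (5.6% of all probes did) and 0 an adjusted one. Without WT 2, 0 passed either (4.33% of all probes passed the unadjusted one). Malt1, the protease that links the receptor to NF-kB, had a log2 fold change of -0.38 (-0.23 without WT 2, unadjusted limma p 0.0935). Every hNAG-1 array (577 to 649) lay below every WT array (688 to 1073), as for 0.695% of all probes. Dapp1, an adaptor downstream of PI3 kinase, had -0.50 (-0.34 without WT 2, unadjusted limma p 0.0951), with overlap between the genotypes. With slide as a block neither passed, at an unadjusted limma p of 0.312 for Malt1 and 0.0611 for Dapp1. The highest fold change of the list, 0.12 for the adaptor Pik3ap1 (0.55 without WT 2), did not pass.

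Of 24 other B lineage genes measured, WT 2 was the highest array for all 24, and 0 passed an unadjusted limma p of 0.05. Their median log2 fold change was -1.0 with all arrays and -0.09 without WT 2. Ighm, the constant region of IgM, gave 7823, 52049, 2718 and 2361 in WT 1 to 4 and 1704, 1813, 2058, 8400 and 2498 in hNAG-1 1 to 5, so WT 2 was again far above the rest and hNAG-1 4 came next. Bank1, a B cell scaffold protein, had the largest fold change of the list at -1.73, and Cd38 the smallest at -0.08. Without WT 2 they were -0.59 and 0.48. Most genes of the germinal centre list did not share the rise in WT 2, which was the highest array for 2 of 9. Rgs13, a regulator of G protein signalling found in germinal centres, gave 97.7 to 130 in WT and 44.5, 12.8, 34.1, 8.63 and 158 in hNAG-1 1 to 5, a log2 fold change of -1.93 with all arrays and also without WT 2, where its unadjusted limma p was 0.0535. The Rgs13 probe was well above background on 3 of the 5 hNAG-1 arrays, and with slide as a block its fold change turned to 0.50 (unadjusted limma p 0.574). S1pr2, a receptor for sphingosine phosphate, had the only fold change above 0 in this list, at 0.20 (0.15 without WT 2). Like the flat Cr2 probe, Rgs13 was low on slide 2 and highest in hNAG-1 5. For plasma cell genes WT 2 was the highest array for 6 of 9, and their log2 fold changes ran from -1.63 for Mzb1, a chaperone of antibody assembly, to 0.27 for the transcription factor Xbp1. Without WT 2 these values were -0.60 and 0.20. The germinal centre and plasma cell lists hold genes bright on every array, such as Bcl6 (2089 to 4998) and Xbp1 (14376 to 26760). In whole-gland RNA the cells that these transcripts came from are not known. Jchain, which joins secreted antibody, gave 249, 24045, 5722 and 1478 in WT 1 to 4 and 3004, 567, 155, 2791 and 1123 in hNAG-1 1 to 5, an order that differed from that of the B cell genes, with WT 1 near the bottom.

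Most T cell markers, and some markers of the lymph node stroma, were highest in the same gland as the B cell genes. WT 2 was the highest array for 12 of 15 T cell genes, with a median log2 fold change of -1.29 with all arrays and -0.41 without WT 2. Of these genes, 2 passed an unadjusted limma p of 0.05 (beside 5.6% of all probes) and 0 an adjusted one. They were Trat1, a T cell receptor adaptor, at -2.01, and Cd2, an adhesion receptor, at -1.50. Without WT 2, Trat1 was at -1.64 (unadjusted limma p 0.0224) and was the 1 T cell gene that passed, beside 4.33% of all probes. Cd2 was then at -0.78 (unadjusted limma p 0.106). The Trat1 probe was well above background on 1 of the 5 hNAG-1 arrays. With slide as a block Trat1 was at -0.76 (unadjusted limma p 0.390) and Cd2 at -0.92 (unadjusted limma p 0.466), so neither passed. For the lymph node stroma, WT 2 was the highest array for 4 of 7 genes. Cxcl13, the chemokine that draws B cells into follicles, gave 1248, 6427, 509 and 230 in WT 1 to 4 and 157, 100, 166, 7109 and 585 in hNAG-1 1 to 5. The 3 arrays high for Cxcl13 were the same 3 that were high for Cd79b, and Ccl19, a chemokine of the T cell zone, had a log2 fold change of -1.71 with WT 2 at 16356, and of -0.62 without that array. The addressin Madcam1 had the highest of the stroma list, at 0.44 (0.39 without WT 2), and 0 stroma genes passed an unadjusted limma p of 0.05. Summed over the 9 B cell genes, with the brighter probe of each, intensity ran from 3226 to 44189 in WT and from 2645 to 9158 in hNAG-1. The next WT sum below WT 2 was 10795. Blnk, which is not limited to B cells, made up most of this sum on several arrays, such as 5329 of 5837 in hNAG-1 3 and 2289 of 3226 in WT 3. For the 15 T cell genes the sums ran from 4003 to 25644 and from 3849 to 4995, and for the 7 stroma genes from 8212 to 33860 and from 6389 to 17820. The highest WT sums again came from WT 2, above 7026 and 9354 in WT 1, and the highest hNAG-1 sum of the stroma genes came from hNAG-1 4, above 7644 in hNAG-1 5. Every gene of these lists was well above background on at least 1 array. How much of the B cell result comes with the amount of lymphoid tissue in each gland was not tested.

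Macrophage, dendritic cell, epithelial and fat cell genes were examined in the same way. WT 2 was the highest array for 2 of 7 macrophage genes, 5 of 7 dendritic cell genes, 0 of 9 secretory epithelium genes and 0 of 6 adipocyte genes. The median level in WT 2, relative to each gene's median over the 9 arrays, was 3.89 log2 units for the B cell genes, 3.36 for the other B lineage genes, 2.95 for T cell genes, 1.70 for stroma, 1.06 for dendritic cells, 0.76 for macrophages, -0.46 for epithelium and -0.33 for fat cells. In hNAG-1 4 it was 1.14 for the B cell genes, 1.39 for other B lineage genes and 0.16 for T cell genes, and in WT 1 it was 0.54, 0.88 and 0.59. The lists did not move as 1 in these arrays: in hNAG-1 4 stroma was at 0.64, macrophages at 0.81 and germinal centre genes at -0.12, and in WT 1 stroma was at -0.21 and macrophages at -1.10. The dendritic cell list held 1 gene past an unadjusted limma p of 0.05, the growth factor receptor Flt3, at a log2 fold change of -1.42 (-1.24 without WT 2, but -0.04 with slide as a block, unadjusted limma p 0.936), and the macrophage, epithelial and fat cell lists held 0. The extremes were -1.95 for the homing receptor Ccr7 and 0.08 for the integrin Itgax among dendritic cell genes, -0.31 for Lyz2 and 0.22 for Adgre1 among macrophage genes, and -0.002 for Csn3 and 0.34 for Lalba among milk protein and other epithelial genes. Without WT 2 these values were -0.77, 0.14, -0.15, 0.26, -0.13 and 0.27, in the same order. Without hNAG-1 4 the value of Adgre1 turned to -0.27. The direction of the epithelial list depended on WT 2, with 8 of 9 fold changes above 0 with all arrays (median 0.06) and 8 of 9 below 0 without it (median -0.05). Of the fat cell genes, 6 of 6 had a fold change above 0, with a median of 0.47 and a range from 0.03 for Fabp4 to 1.0 for Retn, against -0.09 and 0.92 without WT 2. In WT 1 their median relative level was -1.34 log2 units, and without WT 1 their fold changes ran from -0.03 for Lep to 0.50 for Retn.

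**Figure D4:**
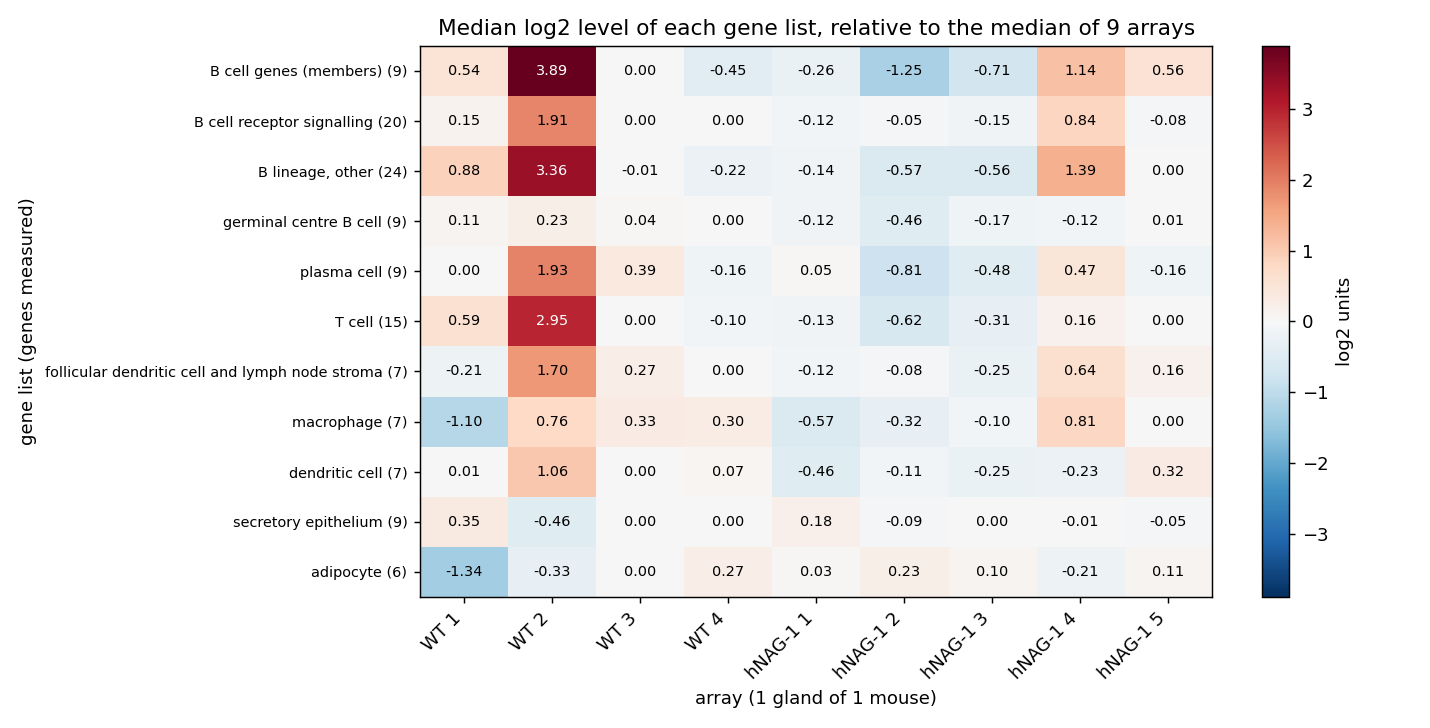
Median log2 level of 11 gene lists on each array, after subtracting each gene's median over the 9 arrays, with the number of genes measured in brackets and higher values in red. The WT 2 column reads 3.89 for the 9 B cell genes, 3.36 for other B lineage genes and 2.95 for T cell genes, against 0.23 for germinal centre genes and -0.46 for secretory epithelium.

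Across the 9 arrays most of the B cell probes rose and fell together. Over the 78 pairs of probes the median Pearson correlation of log2 levels was 0.797, and it was 0.545 over 7 arrays without WT 1 and WT 2, the 2 arrays farthest from the median of the mean level. Single pairs ranged from 0.0725, for Blnk with Cr2 probe A_52_P490788, to 0.989. That Cr2 probe had an r of 0.705 with Cd79a but of 0.288 with Cd79b. The 78 pairs include dim probes, whose values under background have no measured order. The correlations share arrays and scaling and describe these 9 glands. The mean log2 level of the 4 genes well above background on all arrays (Cd79b, Ms4a1, Cr2 and Blnk) was compared with 16065 other genes measured on all arrays. The 10 most alike, with r from 0.978 to 0.987, were Ccr6, the delta chain constant region of immunoglobulin, Ptprcap, Pglyrp2, Cd8a, Ltb, Fcmr (named Faim3 on the array), Tnfrsf18, Icos and Cd3g. Ccr6, a chemokine receptor, gave 378, 2245, 122 and 104 in WT 1 to 4 and 127, 71.3, 72.2, 262 and 169 in hNAG-1 1 to 5, and its r was 0.987, or 0.971 without the 2 farthest arrays. The 3 least alike were Sugp1 (Sf4 on the array) at -0.988, Six5 at -0.981 and Mmadhc (2010311D03Rik on the array) at -0.973. All 3 were lowest in WT 2, where Sugp1 was at 5384 against 6148 to 7588 on the other arrays.

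The probes were 60 bases long, and the array's annotation places them on the mm7 build. Cd79b lay at chr11:106420507-106420566, the Ms4a1 probes at chr19:10931462-10931521 (A_51_P277683) and chr19:10931002-10931061 (A_52_P483336), and Fcer2a at chr8:3644433-3644492. The Cr2 probes lay at chr1:194695473-194695532 (A_51_P208525) and chr1:194717651-194717710 (A_52_P490788), so they read different stretches of the locus. Blnk lay at chr19:40822777-40822836, Pax5 probe A_52_P429826 at chr4:44538878-44538937 and Cd22 probe A_51_P448140 at chr7:27806351-27806410. For Cd79a (chr7:21688822-21689079), Blk (chr14:58242375-58243512) and the second probes of Cd22 (chr7:27815904-27817228) and Pax5 (chr4:44551296-44583850), the span exceeded the probe length. Gene models of mm7 were not used here, so the exon or UTR a probe reads is not stated. Cd79a was annotated on the plus strand and the other 12 probes on the minus strand. No member spot was saturated or marked as an outlier on any array.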

How the data were processed

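Per the file headers, Feature Extraction version 9.5.3.1 read the 9 Agilent arrays, each labeled with Cy3 alone. The intensity deposited for each feature is background-subtracted and not scaled between arrays. The deposited series table held the same values. The paper's methods name an ANOVA with thresholds on p, fold change and intensity, and no normalization. All later steps were run for the present report.

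Features that were not controls were averaged by probe, divided by the array's 75th percentile, multiplied by the mean of these percentiles and taken to log2. Genotypes were compared with lmFit and eBayes of limma version 3.58.1 in R version 4.3.3, two-sided, without covariates, with 7 residual degrees of freedom, with Benjamini-Hochberg adjustment across the 41174 probes. An exact permutation test over the 126 ways to split 4 and 5 arrays cannot give a p under 0.00794. In data simulated for 4 against 5 arrays with 41174 probes, 60% of probes changed 1.5-fold, 80.5% changed 2-fold and 98.5% changed 4-fold passed an unadjusted p of 0.05. After adjustment 0%, 11.5% and 70.5% passed. These rates are for probes of typical spread and do not hold for the B cell probes, whose spread was wider.

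Members and lists were chosen with earlier results of these data known. Every member probe is given. Of 10 other lists, genes with an unadjusted p under 0.05 and the largest change in each direction were named, besides the 10 most and 3 least alike genes. The values of 3 genes that this rule names are not reported here. Further genes named for their values were chosen after these were seen. Of 116 list entries, 113 were matched, 18 of them by accession and 1 by an older name, through a RefSeq table of assembly GRCm38.p6, which also gave the promoter windows. The probe with the highest mean log2 level stood for a gene. Arrays have no read depth, and their number limits the precision. Per the methods, glands were processed individually. Alternatives were other background correction, scaling, filters, tests, blocks and arrays left out.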

Additional observations from a re-analysis of the deposited data

Results flagged for a closer look

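One result stood out by Dixon's test, which asks whether the highest or lowest array of a genotype lies far from its neighbours. Among the 4 WT arrays, the log2 level of Pax5 probe A_51_P122855 in WT 2 was separated from the next array by 0.916 of the whole WT range. This probe was not well above background on any array. It was 1 of 26 groups tested (13 probes in each genotype), and chance marks about 1 in 20. The other 25 groups did not pass the same test.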

How the results depend on the processing

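The median log2 fold change of the 9 B cell genes was -1.36 and stayed below 0 under the 23 alternatives run for it, the mean over a gene's probes included. Leaving out 1 array at a time gave -1.91 (without WT 3) to -0.42 (without WT 2), and slide as a block gave -0.28. No member passed an adjusted p of 0.05 under any of the 22 fits that test single probes. The number of member probes at an unadjusted p of 0.05, 1 with all arrays, was 0 with slide as a fixed block (7.61% of all probes passed), slide as a random block (3.58%), slide 3 alone (9.04%) and the methods' test (4.82%), and 2 with trend and robust estimation (5.63%) or array weights (15.2%). Leaving out 1 array gave 0 to 3, the 3 without hNAG-1 5, where 14.4% of all probes passed. The flat Cr2 probe lost its unadjusted call without WT 1, WT 2, WT 3, WT 4, hNAG-1 2, hNAG-1 3 or hNAG-1 4, each left out alone, and after normexp correction, where Cd79a was the 1 member called.

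With slide as a fixed block, and on slide 3 alone, the log2 fold change turned to 0.58 for Cd22 probe A_52_P466268, 0.23 for Cr2 probe A_52_P490788, 0.78 for Blk and 0.29 for Blnk. The Blk and Cd22 values are fitted to arrays of which WT 2 and hNAG-1 5 alone were well above background, so they show no measured change of direction. Leaving out 1 array gave -2.95 (without WT 4) to 0.094 (without WT 2) for Ms4a1 probe A_52_P483336 and -0.73 (without WT 3) to 0.23 (without WT 2) for Blnk, and both turned only without WT 2. With array weights they were 0.39 and 0.33. The cause was not tested. The other 7 member probes with a measured level kept their direction. Of these, Pax5 probe A_52_P429826 was well above background on 2 WT arrays and 1 hNAG-1 array. Cr2 probe A_51_P208525 was so on 2 arrays of each genotype. The direction kept by this Pax5 and this Cr2 probe thus rests partly on values not well above background. Of all probes at an unadjusted p of 0.05, 20.5% were higher in hNAG-1, but 54.2% after normexp correction, 57.5% after quantile normalization, 70.7% after median scaling and 2.86% without scaling. Median scaling moved the median log2 fold change of all probes to 0.20, no scaling to -0.16 and slide as a block to 0.19.

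Same-numbered arrays of the 2 genotypes had deviations that correlated at 0.279, -0.199, -0.142 and -0.307. Differently numbered arrays gave -0.267 to 0.349. The replicate numbers thus showed no pairing of the mice, though so few values cannot exclude it. A replicate block, which leaves out hNAG-1 5, gave 2 member probes at an unadjusted p of 0.05 and 13.2% of all probes. Signal limits the dim probes: on single arrays the dimmest probe that counted as well above background had a scaled intensity of 14.8 to 32.6, above most values of Blk and of the dimmer Cd22 probe.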
